A study of Mus musculus with 16 samples.

Results

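Axon guidance genes encode the cues and receptors that steer growing axons and migrating cells. The group described here was chosen by symbol alone: semaphorins, plexins, neuropilins, Slits, Robos, ephrins, Eph receptors, netrins, netrin G proteins, Unc5 receptors and Dcc. Of 15876 genes measured, 60 matched the symbol pattern. One of them, Unc50, matched by spelling only, since it encodes a Golgi protein and no netrin receptor, and it was set aside. The other 59 were 31 ligands (16 semaphorins, 7 ephrins, 3 Slits, 3 netrins and 2 netrin G genes) and 28 receptors (10 Eph receptors, 8 plexins, 4 Robos, 4 netrin receptors and 2 neuropilins).

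Total RNA was sequenced from small regions of CD1 mouse embryos, an outbred strain, at embryonic days E8.5 (4 libraries), E9.5 (4) and E10.5 (8). The labels name no treatment or mutation and no number of embryos per library. By their titles the libraries fell into 6 groups. Neural epithelium of E8.5 held 3 libraries (caudal brain, floor plate and non-floor plate), and neural epithelium of E10.5 held 3 (lateral prominence, central and dorsal control). Surface and placode epithelium held 2 (the epidermal ectoderm of E9.5 and the olfactory pit of E10.5), and mesoderm and cranial mesenchyme held 2 (E8.5 and E9.5). The arches, whose mesenchyme is largely of neural crest origin, gave 2 libraries at E9.5 (mandibular and maxillary), and arches with nasal prominences gave 4 at E10.5 (mandibular, maxillary, lateral nasal and medial nasal). Each region and stage had 1 library, so p-values measure the spread between regions of a group and not between repeats of a region.

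The deposited values were ratios of each gene to its own median over the 16 libraries, which compare libraries and not genes. A level below is the value of a gene divided by its lowest value over the 16 libraries, so a level of 1 is the lowest library. In 38 of the 59 genes several libraries shared the lowest value, a floor that marks low or absent expression. A level above such a floor is a lower bound on the true ratio. In the other 21 genes no shared floor was seen, and the level is the ratio to the lowest library. Of all floor-sharing genes, 74.3% to 81.5% were at the floor in the E10.5 arches and lateral nasal prominence, 63.8% to 72.4% in the E10.5 neural libraries and 50.6% to 59.1% in the other 10, so a floor value is common in the first of these. Differences tested with limma are given relative to the median gene of each library. That median gene lay between -0.82 and -0.07 (log2) in the 3 neural libraries, the 2 arches and the lateral nasal prominence of E10.5, and between -0.004 and 0.40 in the other 10 libraries. Less expression per cell and fewer expressing cells cannot be told apart in such bulk tissue.

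The tissue labels were checked against marker genes. Neural progenitor genes (8 measured) had mean log2 levels of 2.04 to 3.51 in the 6 neural libraries and of 2.12 and 2.16 in the 2 surface libraries, which this list does not set apart from neural tissue, and facial mesenchyme genes (9 measured) of 2.51 to 3.48 in the arches and the lateral nasal prominence. By these lists 1 library, labelled medial nasal prominence, went against its label. Its neural progenitor mean was 3.20 and its facial mesenchyme mean 0.97, with 6 of the 9 mesenchyme genes at their lowest value, among them Twist1, and 2 of them, Dlx2 and Dlx5, at 21.2 and 19.4. Among the progenitor genes Fabp7, at its floor in both surface libraries, was at 56.4 in it. Of 8 neuron genes, 6 were at a level of 5 or more in it, with a mean of 2.87. Tests against the E10.5 facial group are therefore given with and without it. For the E10.5 libraries titled central and dorsal control, the header inside each file names the other region. They are named by title here, and they share a group, so the group tests do not depend on which is which. Shh, the ventral midline signal, was at 12.4 in the library titled dorsal control, 7.04 in that titled central and at its floor in lateral prominence, where a level is as defined above. This gene and Foxa2 below were chosen after their values were seen.

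Guidance systems work as pairs. Secreted class 3 semaphorins bind neuropilins that signal through plexins, Slits repel cells that carry Robo receptors, netrins attract through Dcc and repel through Unc5 receptors, and membrane-bound ephrins signal to Eph receptors, and back, at contacts between cells. In the early head the same molecules also sort compartments of the brain, channel migrating neural crest and pattern vessels, well before most axons have formed.

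Of the 59 genes, 34 (57.6%) reached a level of at least 5 in at least 1 library, against 32.5% of all genes, and 6 (10.2%, against 21.0% of all genes) stayed under 2 in each library. The 6 were Epha2, Ntn3, Robo4, Sema3b, Sema3e and Slit1. The library labelled medial nasal prominence had the most genes at a level of 5 or more, 9 ligands and 7 receptors, and the E10.5 maxillary arch had 2 and 2. E8.5 caudal brain had 7 ligands and 4 receptors at that level, the olfactory pit 5 and 6, and E8.5 mesoderm 6 and 6. In caudal brain and in the pit 18.6% of the guidance genes were at that level, against 10.96% and 10.97% of all genes. In the medial nasal library 27.1% of the guidance genes were at that level against 10.4% of all genes, and in E8.5 mesoderm 20.3% against 14.0%. The shares were 6.78% and 2.03% for the maxillary library of E10.5, and 11.9% and 12.7% for cranial mesenchyme. In E10.5 neural epithelium the share was 11.9% to 13.6% against 3.27% to 6.03%.

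**Figure D1:**
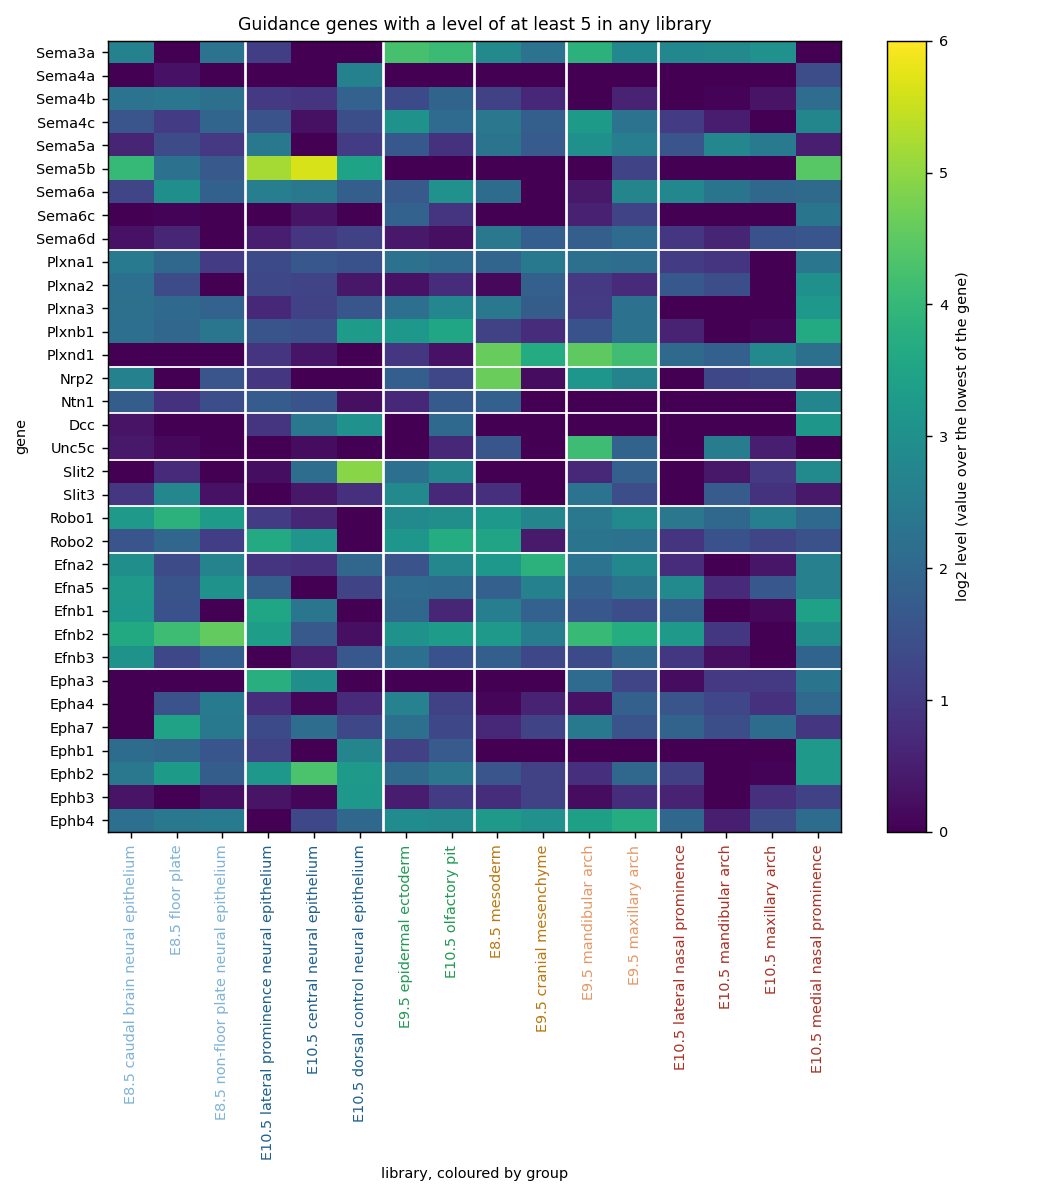
Log2 level (value over the lowest value of the gene) of the 34 guidance genes that reached a level of at least 5 in any library, with genes in rows by family and the 16 libraries in columns by group. Sema5b is bright in the neural columns and in the column of the medial nasal label, while Plxnd1 is bright in mesoderm, cranial mesenchyme and the arches.

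**Figure D2:**
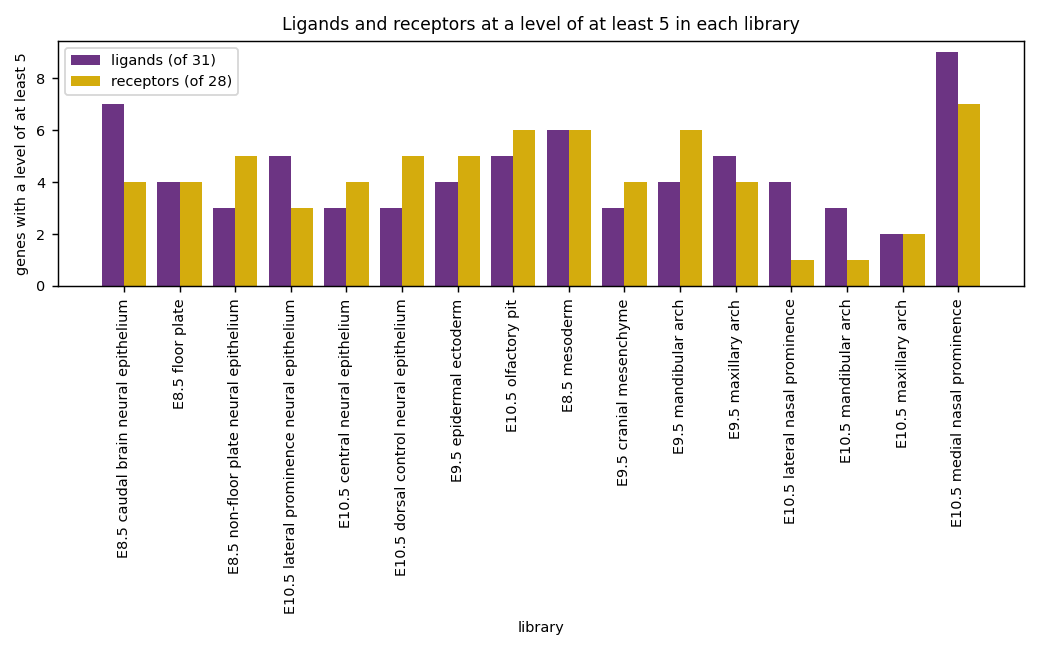
Number of ligands (of 31) and receptors (of 28) with a level of at least 5 in each of the 16 libraries. The tallest ligand bar, 9 genes, belongs to the library labelled medial nasal prominence, and the E10.5 arches have the short bars.

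Neural and facial tissue of E10.5 were compared to ask which cues and receptors separate the brain wall from the crest-rich face beside it. Brain epithelium had more Sema5b, Ephb2 and Plxnb1, and facial tissue more Sema3a, Plxnd1 and Robo1, once the library labelled medial nasal prominence was left out. With that library in the group, 0 of 50 fitted guidance genes passed in either direction by limma (p under 0.05 after Benjamini-Hochberg adjustment, with a change of 2-fold or more), and 0 of all 12851 genes did, a share of 0%. At an unadjusted p under 0.05 there were 8 guidance genes and 1683 genes in all. Without it, 3 of 47 fitted guidance genes were higher and 3 lower, against 2.78% and 3.15% of all fitted genes. All 6 also passed on the values as deposited, where the counts were 7 and 3 (against 8.97% and 1.26% of all genes) and the genes added were Dcc, Ntn4, Plxna3 and Sema4b.

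Sema5b, Plxnd1, Sema3a and Robo1 are shown with the sequence around their transcription start, because they stand at the opposite ends of the neural and facial comparison. Each run covers 250 bases before to 50 after the start on the gene's strand, from RefSeq on GRCm38.p6, a later build than the mm9 named in the submitters' processing notes. Capitals mark matches to CANNTG, the E-box that basic helix-loop-helix factors bind.
Sema5b, chr16:35541112-35541411, plus strand: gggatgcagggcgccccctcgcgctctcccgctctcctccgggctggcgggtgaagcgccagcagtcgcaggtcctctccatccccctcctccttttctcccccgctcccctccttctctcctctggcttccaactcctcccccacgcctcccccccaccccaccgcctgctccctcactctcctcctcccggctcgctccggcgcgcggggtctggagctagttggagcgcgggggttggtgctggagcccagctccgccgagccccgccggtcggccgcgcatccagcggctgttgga
Plxnd1, chr6:115994956-115995255, minus strand: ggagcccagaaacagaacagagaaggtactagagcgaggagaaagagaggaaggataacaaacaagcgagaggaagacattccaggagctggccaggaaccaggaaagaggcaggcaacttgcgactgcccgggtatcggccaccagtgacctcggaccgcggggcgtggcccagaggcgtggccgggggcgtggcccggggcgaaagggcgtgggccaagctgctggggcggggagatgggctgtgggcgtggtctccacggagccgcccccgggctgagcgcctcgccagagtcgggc
Sema3a, chr5:13396534-13396833, plus strand: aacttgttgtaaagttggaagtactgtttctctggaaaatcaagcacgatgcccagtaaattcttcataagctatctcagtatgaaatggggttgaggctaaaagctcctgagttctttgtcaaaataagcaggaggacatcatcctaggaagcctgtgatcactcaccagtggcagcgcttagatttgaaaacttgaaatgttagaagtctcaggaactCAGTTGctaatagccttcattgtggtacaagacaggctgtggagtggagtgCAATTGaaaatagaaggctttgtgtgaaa
Robo1, chr16:72662899-72663198, plus strand: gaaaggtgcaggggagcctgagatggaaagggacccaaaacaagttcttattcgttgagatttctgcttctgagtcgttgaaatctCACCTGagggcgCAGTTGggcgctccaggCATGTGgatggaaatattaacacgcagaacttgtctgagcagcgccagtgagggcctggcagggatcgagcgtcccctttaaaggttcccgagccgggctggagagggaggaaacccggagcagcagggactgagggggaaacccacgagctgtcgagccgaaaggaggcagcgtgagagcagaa
CANNTG reads the same on both strands. It occurred 0 times in the Sema5b and Plxnd1 windows, 2 times in that of Sema3a and 3 times in that of Robo1, and 72.3% of 32851 promoters of this length hold at least 1. GGGCGG, the GC box, searched on both strands, occurred 2 times in the Plxnd1 window and 0 times in the other three, against 35.7% of promoters with at least 1. Also on both strands, TATAAA (the TATA box) was in 0 of the 4 windows and in 13.6% of promoters. The homeodomain motif TAATTA was in 0 of the 4 and in 5.29%, and the motif CCAAT in 0 of the 4 and in 37.4%. GC content was 73.0% for Sema5b, 67.0% for Plxnd1, 57.0% for Robo1 and 41.3% for Sema3a, against a median of 52.7%. Matches describe letters in these windows and were not tied to any factor.

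Sema5b, a transmembrane semaphorin, was the gene with the widest range. Its level was 36.6, 49.6 and 11.2 in the lateral prominence, central and dorsal control neural epithelium of E10.5. It was at its floor in the E10.5 mandibular and maxillary arches and the lateral nasal prominence, and at 21.6 in the library labelled medial nasal prominence. The 3 neural libraries were thus at least 11.2-fold above the floor as deposited (adjusted p = 0.00265 by limma without the medial nasal library and 0.165 with it). At E8.5 it was at 16.1 in caudal brain, 4.80 in floor plate and 3.18 in the non-floor plate library. Both surface libraries, E8.5 mesoderm and E9.5 cranial mesenchyme were at the floor, and the E9.5 arches were at 1 and 2.33, so the 6 neural libraries lay above every library of those 3 groups. Its fellow class 5 semaphorin Sema5a was at 8.07 and 5.96 in the E9.5 mandibular and maxillary arches, and at 6.81, 5.43 and 3.02 in the mandibular, maxillary and lateral nasal libraries of E10.5. The E10.5 neural libraries were at 5.38, 1 and 2.05, which overlaps the face, and the difference did not pass (adjusted p = 0.592 by limma with the medial nasal library and 0.0901 without it).

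Ephb2, a receptor for ephrin-B ligands, stood at 9.16, 19.6 and 9.44 in the lateral prominence, central and dorsal control libraries. In the lateral nasal prominence it was at 2.22, and in the mandibular and maxillary arches of E10.5 at 1 and 1.04. The groups did not overlap, and neural tissue was 6.58-fold higher (log2 2.72 ± 0.41 SE, n = 3 against 3, adjusted p = 0.0023 by limma). The library labelled medial nasal prominence, at 9.29, sat within the neural range as deposited and below it relative to the median gene. With that library in the facial group the adjusted p was 0.127 by limma. Plxnb1, the plexin that binds Sema4d, was 2.69-fold higher in neural tissue (log2 1.43 ± 0.38 SE, adjusted p = 0.0412 by limma without the medial nasal library). Its levels were 2.95, 2.77 and 9.94 in the neural libraries against 1.49, 1 and 1.08 in the facial libraries, with 12.7 in the library labelled medial nasal prominence.

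Sema3a, a secreted repellent of axons and crest cells, was high in the face and low in the brain. Its level was 6.99 in the lateral nasal prominence, 7.23 in the mandibular and 8.19 in the maxillary arch of E10.5, against 2.16, 1 and 1 in neural epithelium. The facial libraries were 7.90-fold higher (log2 -2.98 ± 0.59 SE for neural minus facial, adjusted p = 0.0104 by limma without the medial nasal library and 0.337 with it). The library labelled medial nasal prominence was at the floor. Its highest levels were in the ectoderm, 19.1 in E9.5 epidermal ectoderm and 17.1 in the olfactory pit, followed by the E9.5 mandibular arch at 14.5. The olfactory pit and epidermal ectoderm did not differ from neural tissue beyond the threshold (adjusted p = 0.155 by limma), and the E8.5 caudal brain and non-floor plate libraries were at 6.20 and 4.91.

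Robo1, a Slit receptor, lay at 5.19, 3.99 and 6.02 in the lateral nasal, mandibular and maxillary libraries of E10.5 and at 2.08, 1.56 and 1 in neural epithelium, a 4.63-fold difference (log2 -2.21 ± 0.31 SE, adjusted p = 0.00121 by limma). The library labelled medial nasal prominence was at 4.15, within the facial range for this gene as deposited. Its median gene lay at 0.26 (log2), against -0.82 to -0.38 in the arches and lateral nasal prominence. Relative to the median gene it lay below the facial range and above the neural one. With that library in the group the adjusted p was 0.0632 by limma. Plxnd1, the receptor through which semaphorins guide vessels, was 4.88-fold higher in facial than in neural tissue (log2 -2.29 ± 0.37 SE, adjusted p = 0.00312 by limma, and 0.0695 with the medial nasal library).

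**Figure D3:**
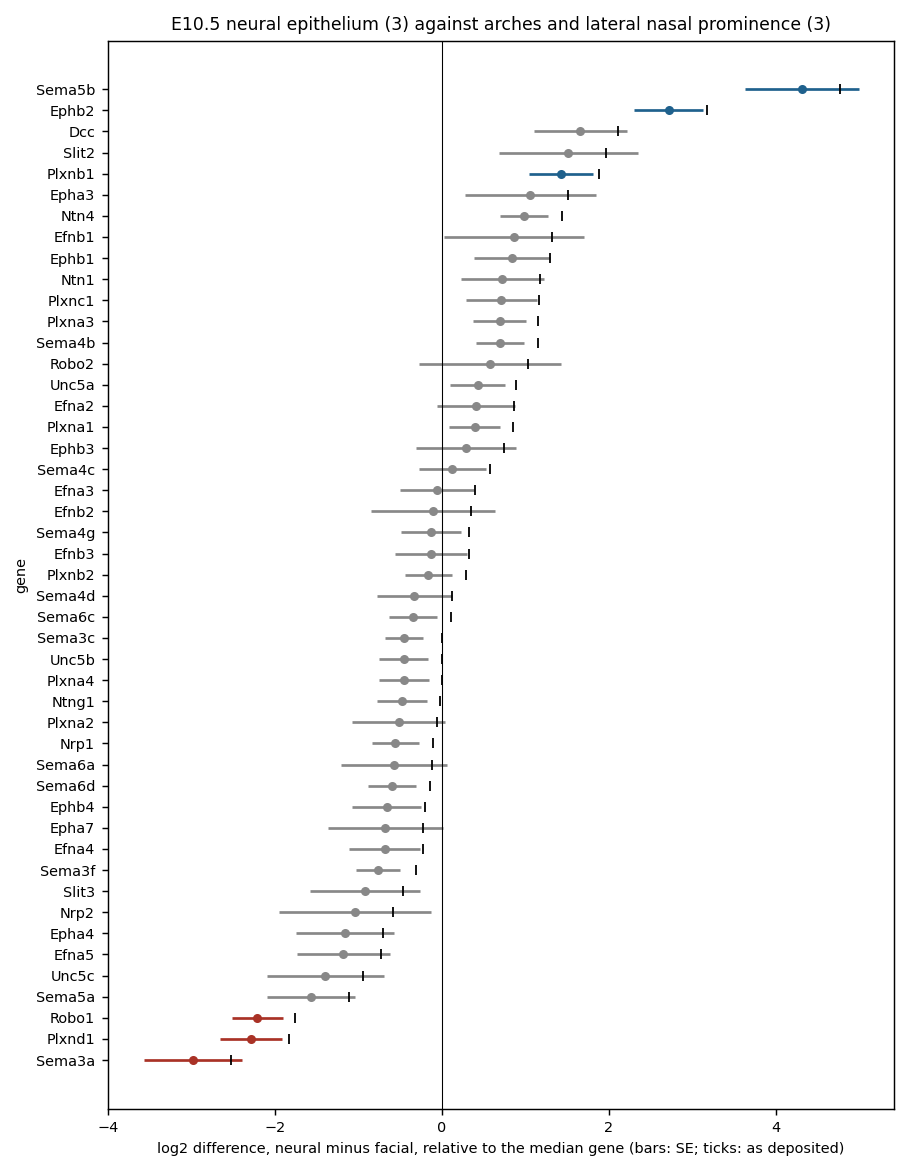
Log2 difference of each of the 47 fitted guidance genes between E10.5 neural epithelium (3 libraries) and the E10.5 arches and lateral nasal prominence (3 libraries), relative to the median gene, with SE bars, and with ticks for the values as deposited. Blue points (Sema5b, Ephb2, Plxnb1) were called higher in neural tissue, red points (Robo1, Plxnd1, Sema3a) lower, and grey points did not pass.

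Plxnd1 also marked mesenchyme at the earlier stages. It was at its floor in all 3 E8.5 neural libraries and at 24.2 in E8.5 mesoderm and 13.0 in E9.5 cranial mesenchyme, so these were at least 13.0-fold above the floor as deposited (adjusted p = 0.00206 by limma, n = 2 against 3). The E9.5 mandibular and maxillary arches were at 22.8 and 17.8, and the E10.5 arches and lateral nasal prominence between 3.56 and 7.13. The library labelled medial nasal prominence, at 4.64, lay within that facial range as deposited and below it relative to the median gene. The lateral prominence, central and dorsal control neural libraries were at 1.88, 1.26 and 1. Epidermal ectoderm was at 1.92 and the olfactory pit at 1.22. Against the arches and prominences of both stages the surface and placode libraries were 7.90-fold lower (log2 -2.98 ± 0.42 SE, n = 2 against 6, adjusted p = 0.0023 by limma). Endothelial marker genes (9 measured) moved in the same order. Their mean log2 level was 2.21 to 3.05 in mesoderm and cranial mesenchyme and 2.22 to 2.45 in the E9.5 arches. It was 0.92 to 1.17 in the E10.5 facial libraries, the medial nasal library among them, and at most 0.34 in the neural and surface libraries. Kdr, the VEGF receptor that defines this lineage, was at its floor in all 6 neural and both surface libraries, but Pecam1 was at 4.36 and 3.16 in the lateral prominence and central libraries, against 2.85 to 3.74 in the E10.5 arches and lateral nasal prominence, and Tek at 2.59 in floor plate. The part of endothelial cells in the Plxnd1 values was not tested.

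Mesoderm and cranial mesenchyme were compared with E8.5 neural epithelium to set early mesenchyme against early brain. The cranial mesenchyme library was of E9.5, so tissue and stage cannot be fully told apart here. Plxnd1 and Sema6d were the 2 guidance genes of 50 fitted that were called higher, against 0.591% of all fitted genes, and 0 were called lower, against 0.265%. Sema6d, a transmembrane semaphorin that binds class A plexins, was at 5.32 and 3.46 in the mesenchymal libraries against 1.22, 1.55 and 1 in caudal brain, floor plate and non-floor plate. The 3.20-fold difference (log2 1.68 ± 0.33 SE) had an adjusted p of 0.0359 by limma, and it passed under none of the 5 fits that each left out 1 library of the comparison. Against the arches and prominences, mesoderm and cranial mesenchyme had 0 of 50 guidance genes called in either direction by limma, as did all genes (0%), with 4 guidance genes and 1354 genes in all at an unadjusted p under 0.05. Without the library labelled medial nasal prominence the count was again 0 and 0, against 0.0473% and 0.134%, and as deposited it was 1 and 0, against 2.43% and 0.11%. The cranial mesenchyme library had a facial mesenchyme marker mean of 2.71 and a cranial mesoderm marker mean of 0.82 (log2), with 4 of 7 cranial mesoderm markers at their lowest, against 2.29 and 1.70 in the E8.5 mesoderm library. The cranial mesoderm mean was 1.29 to 1.36 in the E9.5 arches and at most 0.59 in the E10.5 facial libraries. Migrating neural crest markers averaged 3.34 in E8.5 mesoderm, 1.85 in cranial mesenchyme, 1.82 to 2.06 in the E9.5 arches and 0.38 to 1.59 in the E10.5 facial libraries. These lists thus did not set the 2 libraries apart from the E9.5 arches as mesoderm against crest.

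The mesoderm and cranial mesenchyme libraries were themselves unlike each other for receptors. Nrp2, a semaphorin and VEGF co-receptor that marks migrating crest, was at 24.9 in E8.5 mesoderm and at 1.15 in E9.5 cranial mesenchyme, an 18.6-fold difference relative to the median gene between single libraries, in which stage and tissue cannot be told apart. The E9.5 mandibular and maxillary arches were at 8.92 and 6.38, caudal brain at 6.26, and each of the other 11 libraries at most at 3.49. Robo2 was 7.31-fold higher in E8.5 mesoderm, at 11.3 against 1.34. Efna5, a membrane-anchored ephrin, was 2.01-fold lower there, a difference of 1.74-fold as deposited. Single libraries were counted where they differed by 2-fold or more and the higher one had a level of 5 or more. By that rule 14 guidance genes could be counted, of which 1 was higher in cranial mesenchyme and 2 were lower. The shares over all genes that could be counted were 18.7% and 8.84%. Migrating neural crest markers (5 measured) averaged 3.34 (log2 level) in E8.5 mesoderm and 1.85 in cranial mesenchyme, and their part in the Nrp2 and Robo2 values was not tested.

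Surface and placode epithelium was set against neural epithelium of both stages. Sema3f, a secreted ligand of neuropilin-2, was at 3.86 in epidermal ectoderm and 3.64 in the olfactory pit and at its floor in all 6 neural libraries (adjusted p = 0.0387 by limma, n = 2 against 6). Unc5b, a repulsive netrin receptor, was at 3.33 and 4.45 in the same libraries and also at its floor in all 6 neural libraries (adjusted p = 0.0308 by limma). These were the 2 guidance genes of 50 called higher in surface than in neural epithelium, against 1.05% of all genes, and 0 were called lower, against 0.303%. Both genes were above their floor elsewhere: Sema3f in E8.5 mesoderm (1.68), cranial mesenchyme (1.92) and 3 facial libraries (1.25 to 1.53), and Unc5b in cranial mesenchyme (1.37) and the E9.5 mandibular and maxillary arches (2.32 and 1.52). Leaving out either surface library ended both calls, as did leaving out E8.5 caudal brain or floor plate, or the lateral prominence or central neural epithelium of E10.5, and leaving out dorsal control ended that of Sema3f. The adjusted p (limma) without one of the libraries reached 0.195 for Sema3f and 0.22 for Unc5b. Sema3d was above its floor in these 2 libraries alone of the 16, at 3.17 and 2.57, and Epha1 likewise at 2.01 and 1.74.

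Against the arches and prominences of both stages, surface and placode epithelium had 0 guidance genes called higher and 2 lower, Plxnd1 and Sema6d, against 0.669% and 0.21% of all genes. The Sema6d levels were 1.33 and 1.20 against 3.53 and 4.26 in the E9.5 arches and 1.54 to 3.05 in the E10.5 facial libraries (log2 -1.54 ± 0.30 SE, adjusted p = 0.022 by limma). As deposited its adjusted p (limma) was 0.071, and it also missed the threshold without epidermal ectoderm (0.185) or either E9.5 arch (0.0549 and 0.0672). Without the olfactory pit the adjusted p was 0.104 for Plxnd1 and 0.236 for Sema6d. Without the library labelled medial nasal prominence, Plxnb1 and Sema3f were called higher in surface and placode epithelium and Plxnd1 and Sema6d lower, against 1.81% and 1.47% of all genes. As deposited and without it the counts were 6 and 2, against 6.16% and 0.804%. Plxnb1 was at 9.13 and 11.7 in the surface libraries against 2.87 and 4.83 in the E9.5 arches, a 3.69-fold difference over both stages (log2 1.88 ± 0.39 SE, adjusted p = 0.0201 by limma). Surface epithelium markers (7 measured) had mean log2 levels of 3.91 and 4.23 in the 2 surface libraries, at most 0.28 in the arches, prominences, mesoderm and cranial mesenchyme, and 1.36 in E8.5 floor plate.

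The olfactory pit differed from epidermal ectoderm for 4 of the 14 guidance genes that could be counted, 2 higher and 2 lower. The shares over all such genes were 22.8% and 14.2%. In this pair of single libraries stage and tissue cannot be told apart. Efna2 (6.88 against 2.90, 2.62-fold) and Sema6a (8.16 against 3.18, 2.82-fold) were higher in the pit. Slit3 (1.61 against 7.15, 4.04-fold) and Epha4 (2.23 against 6.29, 2.56-fold) were lower. Dcc was at 4.11 in the pit and at its floor in epidermal ectoderm. Neuron markers (8 measured) averaged 3.72 (log2 level) in the pit and 1.22 in epidermal ectoderm, and their part in the Dcc value was not tested.

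Neural epithelium of E10.5 was compared with that of E8.5. By their titles the libraries of each stage came from different regions, so stage and region cannot be told apart here. Ntn4, Dcc and Epha3 were called higher at E10.5 and Robo1 lower, that is 3 and 1 of 50 fitted guidance genes, against 5.54% and 5.84% of all genes. Robo1 was at 9.44, 14.5 and 9.85 in the caudal brain, floor plate and non-floor plate libraries of E8.5 and at 2.08, 1.56 and 1 at E10.5. It was 5.78-fold lower at E10.5 (log2 -2.53 ± 0.38 SE, n = 3 against 3, adjusted p = 0.0017 by limma), with no overlap. Ntn4, a netrin of basement membranes, was at its floor in the 3 E8.5 libraries and at 2.96, 3.16 and 2.89 at E10.5 (adjusted p = 0.00317 by limma). These 2 calls held in each of the 11 alternatives fitted. The Robo1 comparison shares its E10.5 neural libraries with the neural and facial comparison above.

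Dcc, the netrin receptor of commissural axons, was at 1.25, 1 and 1 at E8.5 and at 1.88, 5.26 and 8.16 in the lateral prominence, central and dorsal control libraries of E10.5 (log2 2.37 ± 0.73 SE, adjusted p = 0.0446 by limma, 0.13 as deposited). Epha3, a receptor of ephrin-A ligands, was at its floor at E8.5 and at 13.8, 7.96 and 1 at E10.5 (adjusted p = 0.0434 by limma, 0.0827 as deposited). Its level in the dorsal control library was no higher than at E8.5. Leaving out any one of the E8.5 libraries, or the central library of E10.5, ended both calls. So did leaving out dorsal control for Dcc and lateral prominence for Epha3, and the adjusted p (limma) reached 0.13 and 0.131. Neuron markers had mean log2 levels of 0.49 to 0.83 at E8.5 and 1.29 to 1.83 at E10.5, and their part in the Dcc values was not tested.

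The 3 neural libraries of E10.5 were unlike each other for several ligands and receptors. Slit2, a secreted repellent, was at 30.5 in the library titled dorsal control, against 4.43 in that titled central and 1.17 in lateral prominence, and at most 7.26 in any other library. In that same dorsal control library both of its main receptors were at their lowest over the 16 libraries, with Robo1 and Robo2 each at 1, whereas Robo2 was at 12.7 in lateral prominence and 8.69 in the central library. Ephb3 (9.22) and Sema4a (6.24) were also highest in the dorsal control library, 4.09-fold and 2.34-fold above the next library, and Ephb1 was at 6.63 there. Efnb1 and Efnb2, ligands of EphB receptors, were at 1 and 1.20 in the dorsal control library, at 11.5 and 10.05 in lateral prominence, and at 5.09 and 3.20 in the central library. Each of these is 1 library of a region, with no replicate.

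Robo2, the other broadly expressed Slit receptor, was at 13.2 in the olfactory pit, 12.7 in lateral prominence neural epithelium and 11.3 in E8.5 mesoderm. The pit was highest as deposited and lateral prominence relative to the median gene. Next came epidermal ectoderm at 8.94 and the central library at 8.69. The E8.5 neural libraries were at 2.99, 3.97 and 2.15, the E9.5 arches at 4.94 and 4.79 and the E10.5 face at 1.89 to 2.85. So where Robo1 was lower at E10.5 in all 3 neural libraries, Robo2 was above its E8.5 range in the lateral prominence and central libraries and below it in dorsal control. Of the ligands, Slit3 stayed at or below 1.77 in E10.5 neural epithelium, and it was at 7.15 in epidermal ectoderm and 4.85 and 2.65 in the E9.5 mandibular and maxillary arches. Slit1 was above its floor in the central library alone, at 1.59.

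Ntn1, the founding netrin, was above its floor in all 6 neural libraries, at 3.42, 1.85 and 2.71 at E8.5 and 3.34, 2.96 and 1.18 at E10.5. The olfactory pit, at 3.22, and epidermal ectoderm, at 1.58, lay within that range. It was at its floor in cranial mesenchyme, both E9.5 arches and the E10.5 arches and lateral nasal prominence, at 3.59 in E8.5 mesoderm and at 6.78 in the library labelled medial nasal prominence. It passed none of the 7 tests. Of its receptors, Dcc was above its floor in 4 neural libraries, the olfactory pit and the medial nasal library. Unc5a reached 2.74 and 2.29 in the central and dorsal control libraries and at most 1.495 elsewhere. Unc5b was highest in the olfactory pit, which held Dcc too, and Unc5c in the E9.5 mandibular arch.

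**Figure D4:**
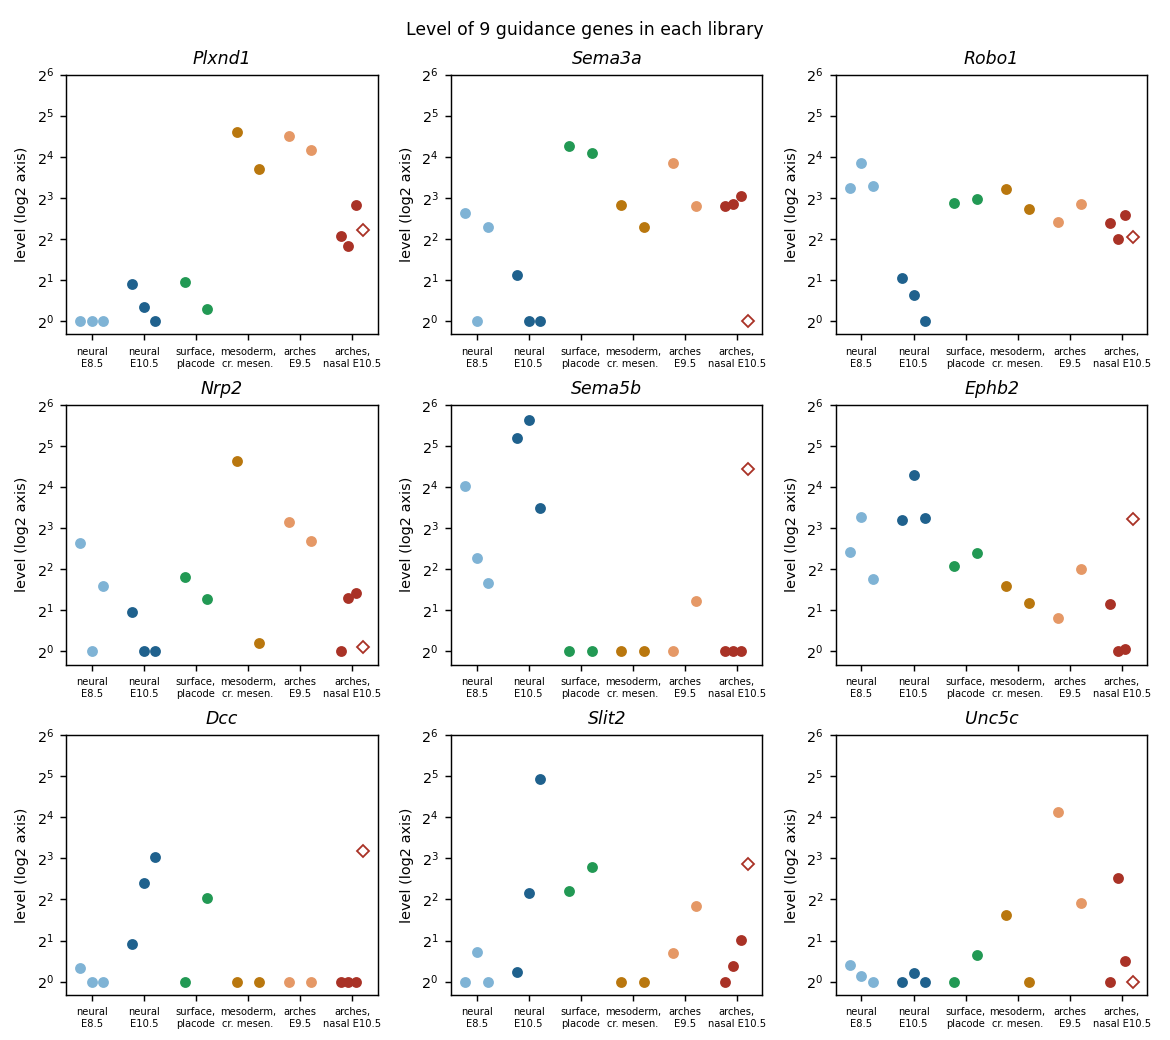
Level of 9 guidance genes in each library (points, log2 axis), by group, with the library labelled medial nasal prominence as an open diamond. Plxnd1 lies high in mesoderm and arches, Sema3a low in E10.5 neural epithelium, and Slit2 reaches 30.5 in 1 neural library, while the diamond sits within the range of the E10.5 neural points for Sema5b, Ephb2 and Sema3a.

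Within E8.5 neural epithelium, the floor plate is the ventral midline that secretes cues to commissural axons. Against the non-floor plate library 12 guidance genes could be counted, of which 2 were higher in floor plate and 3 lower. The shares over all genes that could be counted were 11% and 25.8%. The midline genes Foxa2 (9.18 in the floor plate library, at its floor in the other 15) and Shh (6.36, at its floor in caudal brain and the non-floor plate library) were high in the floor plate library. Slit3 was at 6.89 against 1.22 (4.60-fold relative to the median gene) and Ephb2 at 9.67 against 3.40 (2.31-fold). Efna5 (2.94 against 8.51, 3.56-fold), Efna2 (2.61 against 6.39, 3.01-fold) and Epha4 (2.91 against 5.44, 2.30-fold, 1.87-fold as deposited) were lower. Ntn1, the netrin classically made by floor plate, was at 1.85 in the floor plate library, 2.71 in the non-floor plate library and 3.42 in caudal brain. Surface epithelium markers averaged 1.36 (log2) in the floor plate library and 0.23 in the non-floor plate library, with 3 and 0 of 7 at a level of 5 or more, and their part in the Slit3 value was not tested.

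Of 15 guidance genes that could be counted, caudal brain had 3 higher and 3 lower than the non-floor plate library. The shares over all such genes were 8.18% and 24.8%. Efnb1 was at 9.26 and at its floor in the non-floor plate library, so at least 7.65-fold higher relative to the median gene. Sema5b was 4.20-fold higher and Plxna1, a plexin that pairs with neuropilins, 2.22-fold higher. Epha4 and Epha7, whose segmental expression marks parts of the brain, were at their lowest of all 16 libraries in caudal brain. They were 6.59-fold and 6.53-fold below the non-floor plate levels of 5.44 and 5.39. Efnb2 was at 12.5 against 23.4 (2.27-fold lower, 1.88-fold as deposited), and 23.4 was its highest level in the series.

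Unc5c, a repulsive netrin receptor, was counted higher in the mandibular than in the maxillary arch at both stages. Its level was 17.5 in the mandibular and 3.75 in the maxillary arch of E9.5 (4.76-fold), and 5.70 against 1.42 at E10.5 (3.91-fold), with at most 3.06 in any other library. At E9.5 Sema3a (14.5 against 6.997, 2.11-fold) and Sema4c (9.67 against 4.87, 2.03-fold, 1.99-fold as deposited) were also counted higher in the mandibular arch, and Sema6a lower (1.33 against 6.65, 4.92-fold). These are 3 higher and 1 lower of the 12 guidance genes that could be counted, against 7.75% and 14.9% of all such genes. At E10.5 only 6 guidance genes could be counted. Unc5c was the 1 higher and Plxnd1 (3.56 against 7.13, 2.05-fold) the 1 lower, against 39.6% and 27.1% of all such genes. Each arch and stage is 1 library.

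Over time in the face, 0 of 50 guidance genes were called between the E10.5 arches and nasal prominences and the E9.5 arches by limma in either direction, against 0.187% higher and 0.148% lower of all genes, and 15 of the 50 had an unadjusted p under 0.05, as did 3287 of 12851 genes. With the medial nasal library left out, 2 were called higher, Ntn4 and Sema3f, and 0 lower, against 7.11% and 5.43% of all genes. Those 2 had levels of at most 1.53 in all 5 libraries, at or near the floor, and their differences were 0.15 and 0.05 (log2) as deposited, so they rest on the scaling. As deposited 0 were called higher and 9 lower, against 0.852% and 31.7% of all genes, while the median gene lay at 0.30 and 0.35 (log2) in the E9.5 arches and at -0.38, -0.70 and -0.82 in the lateral nasal, mandibular and maxillary libraries of E10.5. No direction over time is drawn from them.

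Of the ephrins 5 of 7, and of the Eph receptors 7 of 10, reached a level of 5 in some library. Efnb2, which marks arteries and crest territories, was at 12.5, 17.5 and 23.4 in E8.5 neural epithelium and at 16.8 and 13.1 in the E9.5 arches, and its lowest values were 1 in the E10.5 maxillary arch and 1.20 in the dorsal control library. Ephb4, the venous partner of ephrin-B2, was highest in the E9.5 arches at 10.6 and 13.2 and in E8.5 mesoderm at 9.30. Efna2 peaked in cranial mesenchyme at 14.5. Efna5 was at 9.42 in caudal brain, its highest library as deposited, and at 7.23 in the lateral nasal prominence, its highest relative to the median gene. Efnb1 was at 11.5 in lateral prominence neural epithelium, 10.7 in the medial nasal library and 9.26 in caudal brain, and at most 5.89 elsewhere. Efnb3 peaked in caudal brain at 8.31 and was at most 4.54 in the others. Epha4 was at 6.29 in epidermal ectoderm and 5.44 in the non-floor plate library, and Epha7 at 10.97 in the floor plate and at most 5.39 elsewhere. Ephb1 was at its floor in E8.5 mesoderm, cranial mesenchyme, both E9.5 arches, the E10.5 arches and lateral nasal prominence and the central neural library of E10.5, at 3.03 to 4.33 in E8.5 neural epithelium, and at 9.44 in the library labelled medial nasal prominence. With all libraries in the fit, none of these 9 passed in any of the 7 comparisons between groups.

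Among the other plexins and semaphorins, Plxna3 was at its floor in the lateral nasal prominence and both arches of E10.5 and at 1.62 to 9.12 in every other library. Plxna1, Plxna2 and Plxnb2 varied over 5.65-fold, 8.01-fold and 2.93-fold ranges without a call, and Plxnc1 was above its floor in 5 of 6 neural libraries, at up to 4.98 in caudal brain. Sema4c was highest in the E9.5 mandibular arch at 9.67 and epidermal ectoderm at 8.41, and lowest in the E10.5 maxillary arch. Sema6a, the transmembrane partner of class A plexins, was at 8.16 in the olfactory pit, 7.89 in the floor plate and 7.004 in the lateral nasal prominence, and at its lowest in cranial mesenchyme. Sema4b was at 4.67 to 5.10 in E8.5 neural epithelium and at 1 to 1.51 in the E9.5 arches. Sema6c peaked at 5.02 in the library labelled medial nasal prominence and at 3.67 in epidermal ectoderm. Nrp1, the receptor of Sema3a, stayed within 1 to 2.73. The 9 genes above the floor in at most 2 libraries, among them Robo4 and Sema3e, were not fitted.

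Other guidance genes were read from a list of adhesion molecules, cues and receptors outside the symbol pattern (24 measured, 18 fitted) and a list of cytoplasmic effectors (37 measured, 34 fitted). In neural epithelium of E10.5 against E8.5, 7 effectors were higher and 2 lower, against 5.54% and 5.84% of all genes. Stage and region cannot be told apart in that comparison. Srgap1, a Rac and Cdc42 regulator downstream of Robo, was 3.60-fold higher at E10.5 (adjusted p = 0.00662 by limma), where the receptor Robo1 was lower. Dpysl3, a collapsin response mediator of semaphorin signalling, was 5.88-fold higher (adjusted p = 0.0417 by limma). Of the cues and receptors, 0 were higher and 1 was lower, Rgma at 4.23-fold (adjusted p = 0.0457 by limma). In surface and placode epithelium the chemokine Cxcl12 was at 23.3 and 13.7 and at its floor in all 6 neural libraries (adjusted p = 0.0143 by limma). Cxcl12 was also at 20.7 in cranial mesenchyme, 12.6 and 22.03 in the E9.5 mandibular and maxillary arches and 8.35 in E8.5 mesoderm. It was at 1.88 to 6.83 in the E10.5 arches and lateral nasal prominence and at its floor in the medial nasal library. Its receptor Cxcr4 was 7.25-fold higher in surface and placode epithelium than in the arches and prominences (adjusted p = 0.0373 by limma). Without the medial nasal library, where Cxcr4 was at 4.09, all 5 facial libraries were at its floor, so the surface libraries were at least 8.98-fold above it as deposited (adjusted p = 0.0144 by limma). In that fit 3 cues and receptors (Cxcr4, Lrig1 and Rgma) and 3 effectors (Chn2, Dpysl5 and Srgap3) were higher in surface and placode than in facial tissue and 0 lower, against 1.81% and 1.47% of all genes.

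Between E10.5 neural and facial tissue 0 genes of either list were called with the medial nasal library in the group, as was the case for all genes. Without it, 1 of 17 fitted cues and receptors was higher in neural tissue and 2 lower, and 5 of 32 effectors were higher and 1 lower, against 2.78% and 3.15% of all genes. Rgma was 3.36-fold higher (adjusted p = 0.0034 by limma) and Flrt2, a ligand of Unc5 receptors, 4.45-fold lower (adjusted p = 0.00126 by limma). Cxcl12 was also lower and Farp1 was the effector that was lower. The 5 higher effectors were Crmp1, Dpysl3 and Dpysl5, which mediate collapsin responses, and Pak3 and Srgap3. Srgap3, a relative of Srgap1, was at 7.45, 15.8 and 13.9 in the neural libraries against 2.68, 1 and 1.01 in the lateral nasal, mandibular and maxillary libraries, and at 21.3 in the library labelled medial nasal prominence.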

How the data were processed

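RNA of 16 CD1 mouse embryo libraries was sequenced as 50-base single-end reads, with depths above 40000000 reads per the labels. The submitters' processing notes name Bowtie, TopHat, TopHat2, Cufflinks and mm9. Versions, annotation and library totals were not given in the sources used here, so depth per library is unknown and no counting interval was computed. The deposited values are ratios: the authors divided each gene by its own median (all 15876 genes had a median of 1 within 1e-06). Low values stand at a shared floor in 8794 genes.

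Levels were values over the lowest value of the gene. Libraries were centred on the median log2 ratio of the 7082 genes with no shared lowest value, which also raises floor values in libraries with a low median gene. Comparisons of 6 groups used limma 3.58.1 (R 4.3.3) with a trend, 1 fit for all groups, on genes above their lowest value in at least 3 libraries, called at p under 0.05 after Benjamini-Hochberg adjustment with a change of 2-fold or more. The fit was tested on simulated data. Single libraries were compared with no test. Alternatives changed scaling, filter, trend, fold, fit and libraries. Genes named were mainly those called, counted, or reaching a level of 5. Some other guidance genes with lower levels were also named, by no fixed rule. Members and lists were chosen with earlier results of these data known.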

Additional observations from a re-analysis of the deposited data

Results flagged for a closer look

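In the 4 libraries of the E10.5 arches and nasal prominences, 14 of the 34 guidance genes with a level of at least 5 somewhere had 1 library far from the other three. The rule flags about 1 in 20 groups of normally spread values. Where 3 libraries share the floor, as for Dcc and Sema5b, any value above it is flagged, so that rate does not hold here. Ntn1 and Sema6c reached a level of 5 in the medial nasal library alone. The share of all genes flagged was not computed. In 13 of the 14 genes the library apart was the one labelled medial nasal prominence. Its levels were high for Dcc (9.05), Ephb1 (9.44), Ephb2 (9.29), Plxnb1 (12.7) and Plxna3 (9.12) among the receptors. They were high for Efna2 (6.08), Ntn1 (6.78), Sema4a (2.67), Sema4b (4.42), Sema5b (21.6), Sema6c (5.02) and Slit2 (7.26) among the ligands. Its Sema3a level was low, at 1. In the remaining gene the library apart was the mandibular arch, with Unc5c at 5.70.

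The mandibular and maxillary arches were in opposite order at E9.5 and E10.5 for 3 genes, and the difference between stages was not tested. The mandibular over maxillary log2 ratio of Plxnd1 was 0.39 at E9.5 and -1.04 at E10.5, a difference of 1.42. That of Sema3a was 1.08 and -0.21, a difference of 1.29. That of Sema6a was -2.30 and 0.27, a difference of -2.57.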

How the results depend on the processing

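Genes called with all libraries in the fit had 111 values under the alternatives. Of these, 71 kept their direction and call, 40 kept the direction and lost the call, and 0 changed sign. Calls made only without the medial nasal library, among them all those between E10.5 neural and facial tissue, are not included. With that library left out, the values as deposited were the only alternative fitted. Leaving out 1 library at a time gave, for genes called higher, 0 to 3 (E10.5 neural against facial tissue), 1 to 5 (E10.5 against E8.5 neural), 0 to 2 (E10.5 against E9.5 face), 0 to 2 (surface against face), 0 to 2 (surface against neural) and 1 in each case (mesoderm against E8.5 neural). For genes called lower the ranges were 0 to 3, 1 to 2, 0 to 0, 0 to 2, 0 to 1 and 0 to 0. Leaving out the library labelled medial nasal prominence gave each highest count that involves the E10.5 face. The shares of all genes in those fits are given above. For E10.5 against E8.5 neural tissue the shares of all genes ranged from 2.9% to 4.92% higher and from 2.54% to 5.53% lower. For surface against neural tissue they were 0.197% to 0.904% higher and 0.103% to 0.362% lower. For mesoderm against E8.5 neural tissue they were 0.127% to 0.456% higher and 0.0318% to 0.165% lower. For surface against facial tissue they were 0.134% to 1.81% higher and 0.0316% to 1.47% lower.

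As deposited, without scaling to the median gene, E10.5 against E8.5 neural tissue had 1 gene higher, the E10.5 face 2 lower than at E9.5, and surface against facial tissue 2 higher and 1 lower. As deposited and without the medial nasal library, an alternative chosen after seeing the data, 7 were higher and 3 lower in neural than facial tissue, 9 lower in the E10.5 than the E9.5 face, 6 higher in surface than facial tissue, and 1 higher in mesoderm than facial tissue. With no filter 1 gene was higher in E10.5 than E8.5 neural tissue, and with a filter of 6 libraries 1 was higher in surface than neural tissue. Fitting only the groups compared gave 0 lower in surface than facial tissue, 0 higher in surface than neural tissue, and 1 higher and 1 lower in mesoderm than E8.5 neural tissue. With no trend 1 was lower in surface than neural tissue. For the fits as deposited and without the medial nasal library the shares of all genes are given above. They were not computed for the other alternatives of this paragraph, whose counts are not read as results about guidance genes. The cause of these changes was not tested.

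Counts between single libraries changed with the thresholds, and the shares of all genes were not computed for these settings. As deposited, floor plate had 4 genes higher than non-floor plate, caudal brain 5 higher, and cranial mesenchyme 0 higher than mesoderm. At a level of at least 2, floor plate had 8 higher and 8 lower, caudal brain 5 higher, the E9.5 mandibular arch 6 lower and the E10.5 mandibular arch 2 higher than the maxillary, the olfactory pit 7 higher than epidermal ectoderm, and cranial mesenchyme 3 higher and 5 lower. At a fold of at least 4, floor plate had 1 higher and 0 lower, the E9.5 mandibular arch 1 higher, the E10.5 mandibular arch 0 higher and 0 lower, the pit 0 higher and 1 lower, and cranial mesenchyme 0 higher.

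The highest library of a gene was the same on both scalings for 46 of 59 genes. In simulated data for the neural and facial comparison over 12851 genes, the fit recovered 62% of changes of 1.5 and 95% of changes of 3 (log2). The simulated noise was normal and independent, with no floor and no facial library unlike the others. The real fit with all libraries called 0 genes, so these shares do not give its power. Replicate numbers are not in the labels, and a pairing by region exists only for the mandibular and maxillary arches of both stages. Over those 4 libraries the stage comparison of the face was fitted again, an alternative chosen after seeing the data. With the arch as a replicate block (1 residual degree of freedom), 0 guidance genes of 50 fitted were higher and 1 lower. Over all 12851 genes 244 were higher and 141 lower. Without the block 13 guidance genes were higher and 1 lower, and over all genes 2217 and 545. The highest library differed between the scalings for Dcc, Efna5, Epha4, Plxnb2, Plxnd1, Robo2, Robo4, Sema3f, Sema4b, Sema4g, Sema5a, Sema6a and Sema6d.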
